A study of Rattus norvegicus with 18 samples.

Results

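Dusp1 was followed as the row ENSRNOG00000003977 of the count tables, which is 1 of 32662 gene rows. It was chosen for its role in feedback on MAP kinase signalling, with earlier results of these data known. The tables give IDs without names, so the pairing of this ID with Dusp1 was taken from the definition of the gene and could not be checked in the files. RefSeq lists Dusp1 of the rat as a protein-coding gene that is also known as MKP-1, and 0 other genes of its GRCr8 annotation overlap it. The counts themselves were made on another assembly, Rnor_6.0.

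Dusp1 encodes a phosphatase that removes phosphate from both the threonine and the tyrosine that activate MAP kinases, and it acts mainly on p38, JNK and ERK in the nucleus. The gene is itself an immediate early gene, transcribed within minutes of stimuli that activate these kinases or raise cyclic AMP, and also in response to glucocorticoids. Its product thereby closes a negative feedback loop on the signal that induced it. In neurons, ERK signalling is known for its part in forming long-term memory.

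Adult rats of the outbred Long-Evans strain were used. Trained rats had gone through inhibitory avoidance, in which an animal learns to withhold entry into a place where it was shocked, and were killed 1 h or 6 d afterwards. Naive rats had stayed in the home cage. Dorsal hippocampus (dHC) and prelimbic cortex (PL), a medial prefrontal area, were punched from frozen brain. Each library was made from a pool of 5 rats, and each of the 6 groups held 3 pools, 18 libraries in all. Whether the dHC and PL pools came from the same rats is not given in the sources used here. None of the groups used here was placed in the apparatus without a shock, so that learning, shock and handling cannot be told apart. Libraries were polyadenylated, stranded RNA libraries read in pairs of 150 nt.

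Reads assigned to genes ran from 7463875 to 9215695 per library, and a count of 3 reads corresponded to 0.330 to 0.391 CPM (CPM, read counts relative to the library total, here scaled by TMM factors). Each of the 18 libraries had its highest rank correlation over genes with another library of its own region. The cell types in the punches could not be checked against marker genes, because the IDs carry no names. Unaligned reads were 42.0% to 51.8% of a library, and 10.1% to 13.6% fell outside gene models.

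The 250 bases before the RefSeq start of Dusp1, at chr10:17184603-17184852 of GRCr8 on the plus strand, are shown because they hold the DNA letters read by CREB, a factor activated downstream of cyclic AMP and ERK. Capitals mark the cyclic AMP response element TGACGTCA (CRE) and a separate match to its shorter core TGACG.

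Dusp1 promoter: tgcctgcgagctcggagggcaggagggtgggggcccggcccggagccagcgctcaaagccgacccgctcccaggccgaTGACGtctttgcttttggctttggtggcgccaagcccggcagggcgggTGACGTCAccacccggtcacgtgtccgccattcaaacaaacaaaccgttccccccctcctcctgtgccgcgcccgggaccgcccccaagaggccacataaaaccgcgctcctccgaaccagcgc

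Motifs were searched on both strands. The CRE TGACGTCA ended 117 bases before the start, and 1.59% of 33469 promoter windows of this length in the RefSeq table held one. The core TGACG matched 3 times, once on each strand within the CRE and once at 172 to 168 bases before the start. A window with at least 3 such matches was found for 0.813% of promoters. The E-box CACGTG matched once, at 107 to 102 bases, as it did at least once in 5.59% of promoters. The GC box GGGCGG matched 2 times, beginning 131 and 46 bases before the start, and 14.8% of promoters held at least as many. The loose core of the serum response element, CC and GG with any 6 bases between, matched 5 times, and at least 5 matches were found in 5.36% of promoters. No match was found in this window for the AP-1 letters TGANTCA, for the palindromic glucocorticoid response element or for TATAAA, which 6.34%, 0.012% and 12.9% of promoters held. These matches describe letters in the reference and not binding.

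In dHC, Dusp1 had 9.15, 10.4 and 11.5 CPM in the naive pools, 17.5, 18.5 and 16.4 CPM in the 1 h pools and 11.9, 9.61 and 12.2 CPM in the 6 d pools. These levels rested on 80 to 102 reads per naive library, 149 to 166 per 1 h library and 84 to 98 per 6 d library. Every 1 h pool of dHC lay above every naive and every 6 d pool, and the naive and 6 d pools overlapped. Taken singly, 1 h pools lay above naive pools for 9.37% of genes and above 6 d pools for 9.51%. The share with both was not computed.

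In PL, the naive pools had 29.8, 30.2 and 31.4 CPM, the 1 h pools 72.1, 79.7 and 74.4 CPM and the 6 d pools 30.0, 30.1 and 29.8 CPM. The reads behind them numbered 258 to 272 per naive library, 636 to 681 per 1 h library and 231 to 267 per 6 d library. The pattern had the same shape as in dHC, with the 1 h pools apart from all others and the naive and 6 d pools overlapping, but at a higher level throughout. In PL the 1 h pools lay above the naive pools for 9.74% of genes and above the 6 d pools for 10.1%, each taken singly.

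**Figure D1:**
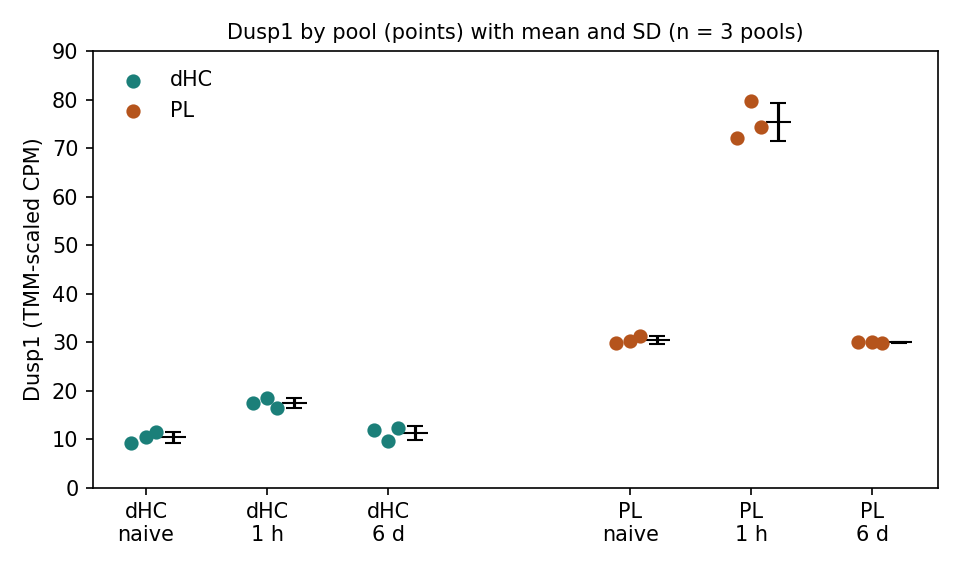
Level of Dusp1 in TMM-scaled CPM (vertical axis, starting at 0) in each of the 18 pools, by region and condition; points are pools and the bars beside them the mean and SD of 3 pools. The 1 h pools stand above the others within each region, at 16.4 to 18.5 CPM in dHC and 72.1 to 79.7 CPM in PL.

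The group means put the levels in the order dHC naive (10.4 ± 1.20 CPM, SD, n = 3), dHC 6 d (11.2 ± 1.43), dHC 1 h (17.5 ± 1.05), PL 6 d (30.0 ± 0.131), PL naive (30.5 ± 0.835) and PL 1 h (75.4 ± 3.93). Within this order the naive and 6 d groups of a region were not separated by their spread, in dHC as in PL. All other neighbours were separated, the highest dHC pool (18.5 CPM at 1 h) lying below the lowest PL pool (29.8 CPM, naive). The share of genes with such an order was not computed.

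The spread between pools was of the order of the counting error. The coefficient of variation between pools was 11.5%, 6.04% and 12.7% in naive, 1 h and 6 d dHC, where the read counts by themselves would give about 10.7%, 7.99% and 10.4%. In PL it was 2.74%, 5.21% and 0.436%, where the counts would give about 6.14%, 3.90% and 6.28%. The 6 d pools of PL were thus closer to each other than counting error, and their SD understates the error of a pool. For a single pool, naive pool 1 of PL, 266 reads gave 29.8 CPM with an exact 95% Poisson interval of 26.3 to 33.6 CPM. Such an interval covers only the counting error, as reads copied from 1 molecule by PCR cannot be recognised. The spread beyond counting, as edgeR estimated it, was a coefficient of variation of 6.87% in dHC and 4.88% in PL, and it was lower for 35.5% and 11.8% of the 1000 genes with the nearest counts.

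Dusp1 rose in PL 1 h after training. It averaged 75.4 ± 3.93 CPM at 1 h and 30.5 ± 0.835 CPM in naive pools (SD, n = 3 each), a log2 fold change of 1.31 (SE 0.08), or 2.49-fold with a 95% interval of 2.23 to 2.77. The edgeR adjusted p was 6.47e-11 over 14318 genes. Genes called higher, meaning higher at 1 h with an adjusted p under 0.05, made up 0.782% of those tested, and Dusp1 ranked 14th by fold among these 112. By p-value it ranked 7th of all genes. All 3 pools at 1 h lay above all naive pools, as was the case for 9.74% of genes, and the lowest 1 h pool exceeded the highest naive pool by 40.7 CPM. The PL 1 h and naive pools were also apart in technical measures. Reads without a unique alignment were 6.77% to 7.18% of a library at 1 h and 6.50% to 6.74% in naive pools. Genes detected numbered 18050 to 18225 at 1 h and 18257 to 18284 in naive pools. The part of either in the rise was not tested. In punched tissue a higher level per cell and more cells of an expressing type cannot be told apart.

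Dusp1 also rose in dHC at 1 h, with 17.5 ± 1.05 CPM at 1 h and 10.4 ± 1.20 CPM in naive pools (SD, n = 3 each). The log2 fold change was 0.75 (SE 0.13), which is 1.68-fold with a 95% interval of 1.39 to 2.04 (edgeR adjusted p = 0.00968 over 14305 genes). Only 0.217% of genes were called higher in dHC, and Dusp1 ranked 11th by fold among these 31. The 3 pools at 1 h were all higher than the 3 naive pools, as for 9.37% of genes, with a gap of 4.83 CPM. The 1 h pools of dHC were also all more deeply sequenced than the naive ones, with 8914752 to 9136114 against 7687831 to 8874826 reads assigned to genes. The levels are scaled to these totals, and a part of depth beyond that was not tested.

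The call in dHC was not kept in every fit with 1 pool left out. Fewer pools entered these fits, and what cost the call was not tested. Without 1 h pool 1 the log2 fold change stayed at 0.75, with an SE of 0.15. The adjusted p was 0.131 without naive pool 1, 0.0729 without 1 h pool 1 and 0.0599 without 1 h pool 2, within a range of 2.50e-05 to 0.131 over 16 alternatives. The log2 fold change in these fits stayed between 0.67 and 0.84. In PL all 16 alternatives passed, with log2 fold changes of 1.27 to 1.35. A two-sided exact permutation test of 3 pools against 3 gave p = 0.1 in each region, the smallest it can give.

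**Figure D2:**
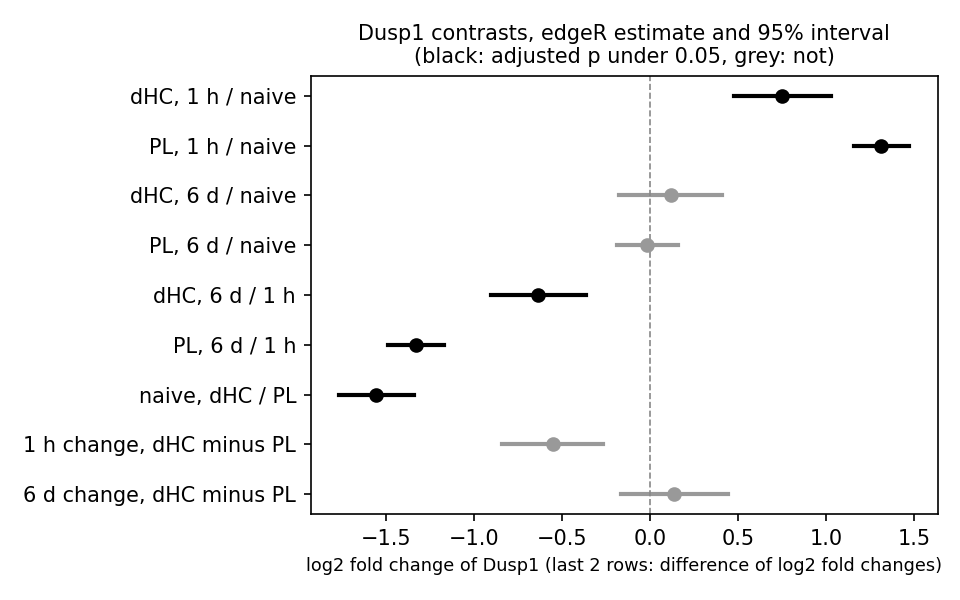
Log2 fold change of Dusp1 (horizontal axis) in each comparison, with its 95% interval from edgeR; in the last 2 rows the axis is the dHC minus PL difference of log2 fold changes. Black marks an adjusted p under 0.05 and grey a larger one; the intervals of both 6 d changes against naive include 0.

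By 6 d no difference from naive was detected. In PL the level was 30.0 ± 0.131 CPM at 6 d and 30.5 ± 0.835 CPM in naive pools (SD, n = 3 each), with a log2 fold change of −0.02 and an SE of 0.08 (edgeR adjusted p = 0.999). The 95% interval allowed a 6 d level of 0.878 to 1.12 times the naive one. In dHC the level was 11.2 ± 1.43 CPM at 6 d and 10.4 ± 1.20 CPM in naive pools, and the log2 fold change 0.12 with an SE of 0.14 (edgeR adjusted p = 0.949). There the 95% interval ran from 0.884 to 1.33 times naive. The exact permutation p was 0.5 in each region.

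Against this background 0% of genes were called at 6 d by edgeR in either region. At an unadjusted p under 0.05 there were 804 genes in dHC (5.62% of those tested) and 497 in PL (3.47%). A threshold of 0.05 lets through about such a share without any change, so these counts are not read as a response. Genes with an adjusted p under 0.05 numbered 1 in dHC with DESeq2 and 0 with limma voom, and in PL 0 with each.

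Set against 1 h directly, the 6 d level had fallen in both regions. In PL it was 30.0 ± 0.131 CPM at 6 d and 75.4 ± 3.93 CPM at 1 h, and the log2 fold change was −1.33 with an SE of 0.08 (edgeR adjusted p = 5.79e-11). Genes called lower made up 1.05% of those tested, and Dusp1 was 15th of these 151 by the size of its fall. In dHC it was 11.2 ± 1.43 CPM at 6 d and 17.5 ± 1.05 CPM at 1 h, and the log2 fold change was −0.64 with an SE of 0.13 (edgeR adjusted p = 0.0202). In this comparison 0.699% of genes were called lower and Dusp1 was 27th of 100. The pools did not overlap in either region, which held in this direction for 9.51% of genes in dHC and 10.1% in PL. The dHC call was lost without 1 h pool 1, 2 or 3 (adjusted p = 0.0974, 0.0568 and 0.0847) and without 6 d pool 2 (adjusted p = 0.103), while the 16 alternatives together spanned 0.000415 to 0.103. The 6 d pools of dHC were all less deeply sequenced than the 1 h pools, with 7921311 to 8806419 against 8914752 to 9136114 reads assigned to genes. In PL the share of reads outside gene models was higher in every 6 d pool than in every 1 h pool, at 12.2% to 13.6% against 10.5% to 12.1%. The part of either in the falls was not tested. These comparisons share the 1 h pools with those against naive, so the rise and the fall are not independent measurements.

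**Figure D3:**
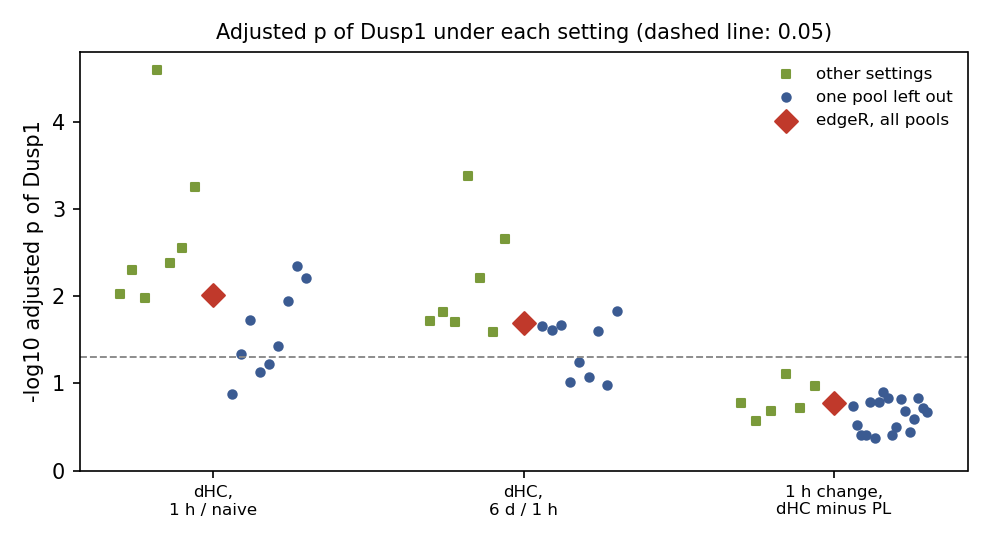
Adjusted p of Dusp1, as −log10 (vertical axis), for both dHC calls and for the regional difference of the 1 h change, with all pools (diamonds), with 1 pool left out (circles) and under the other settings (squares). Some circles fall below the dashed line at 0.05 in both dHC comparisons, and every point of the regional difference lies below it.

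The regions differed without training. Dusp1 averaged 10.4 ± 1.20 CPM in naive dHC and 30.5 ± 0.835 CPM in naive PL (SD, n = 3 each), a log2 difference of −1.56, dHC minus PL (SE 0.10, edgeR adjusted p = 7.07e-13 over 14784 genes). The dHC level was 0.340 times that of PL, with a 95% interval of 0.294 to 0.394. A lower level in dHC was called for 23.4% of genes, and Dusp1 ranked 435th of these 3455 by size. All naive dHC pools lay below all naive PL pools, as for 27.4% of genes. The proportions of cell types in each punch were not measured, and their part in this difference was not tested. All 24 alternatives passed, with log2 differences of −1.63 to −1.46.

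The ratio of dHC to PL was lowest at 1 h. The group means gave 0.340 in naive rats, 0.231 at 1 h and 0.375 at 6 d. Over the 9 pairings of a dHC pool with a PL pool, the ratio ran from 0.291 to 0.388 in naive rats, from 0.205 to 0.256 at 1 h and from 0.319 to 0.409 at 6 d. The 1 h range did not overlap the others, while the naive and 6 d ranges did. Each pool enters several of the 9 pairings, so these are not 9 independent observations. The share of genes with ranges so separated was not computed, and the ranges are given as a description.

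The test of the difference in the 1 h change did not pass over all genes. The log2 fold change was 0.55 smaller in dHC than in PL, a difference of −0.55 (SE 0.14) with a 95% interval of −0.84 to −0.27. The unadjusted edgeR p was 0.000465, 41st of 14784 genes, and the adjusted p 0.168. In the same test 0.0947% of genes were called. The adjusted p ran from 0.0785 to 0.426 over 24 alternatives, and the difference was below 0 in all of them, between −0.64 and −0.47. A missed threshold does not show that the folds were alike, and the interval holds differences up to −0.84. Counted as CPM, the gain in PL was larger by far, from a naive level 2.94 times that of dHC. From a higher start an equal fold also gives a larger gain in CPM, so the gains do not show a larger fold. The means differed by 7.10 CPM between 1 h and naive pools in dHC and by 44.9 CPM in PL, which is 6.33 times the dHC gain, and the 9 pairings of pools gave 4.83 to 9.33 CPM in dHC and 40.7 to 50.0 CPM in PL. This comparison of gains is a description, without a test.

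For the 6 d change, the regional difference was 0.14 (SE 0.15, edgeR adjusted p = 1.00, rounded), with a 95% interval of −0.17 to 0.45. Here 0% of genes were called by edgeR, DESeq2 and limma voom, and 558 (3.77%) had an unadjusted edgeR p under 0.05.

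Dusp1 was among the 15 genes called higher at 1 h in both regions, of 13905 tested in both. Among these 15 it ranked 9th by fold in dHC, where the median log2 fold change was 0.84, and 7th in PL, where the median was 1.20. It was also among the 14 of these 15 genes that were called lower at 6 d than at 1 h in both regions, where 0.699% of all genes were called lower in dHC and 1.05% in PL. That comparison uses the 1 h pools by which the 15 were chosen, so nothing is read from the count. Of the 15 genes, 9 had a lower naive level called in dHC than in PL, Dusp1 included, as did 23.4% of all genes. The test of the regional difference at 1 h passed for 3 of the 15 and for 0.0947% of all genes. Both tests use pools by which the 15 were chosen, so these counts are descriptions. Among the 15, 9 had a regional difference of smaller absolute size than Dusp1. The 1 h change was smaller in dHC than in PL for all of the 15 except ENSRNOG00000020254, with a difference of 0.21, dHC minus PL.

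**Figure D4:**
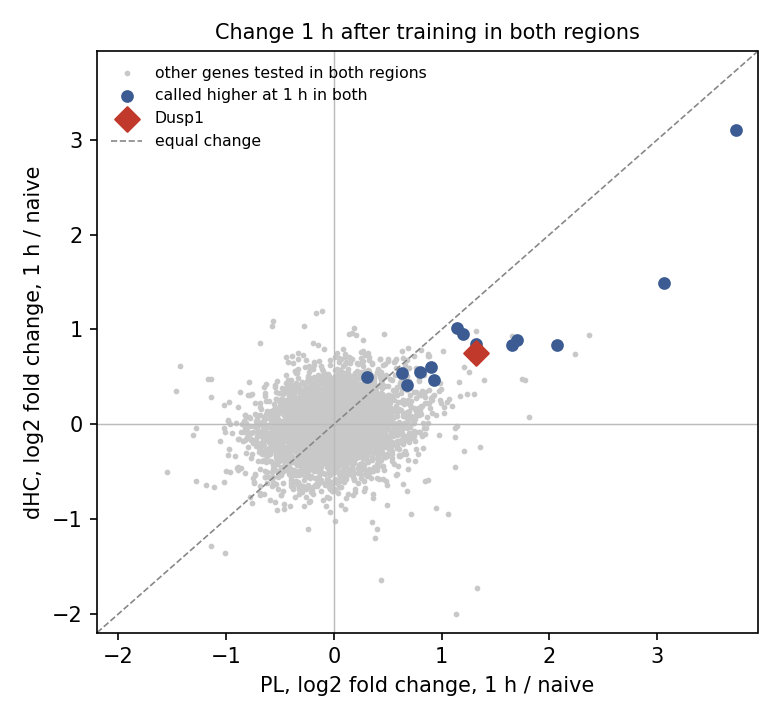
Log2 fold change at 1 h against naive in PL (horizontal axis) and dHC (vertical axis) for 13905 genes; the 15 genes called higher in both are in blue and Dusp1 is the red diamond, at 0.75 in dHC and 1.31 in PL. It lies below the dashed line of equal change, as do the genes in blue except ENSRNOG00000020254.

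The genes with the pattern most like Dusp1 over the 6 groups were ENSRNOG00000004100 and ENSRNOG00000015719, whose names the files do not give. The measure was the root-mean-square difference of gene-centred mean log2 CPM, which was 0.26 for the first and 0.27 for the second, where the median of the 14299 genes compared was 0.98. The third-nearest gene was at 0.28, so the order among the nearest genes is not firm. Both stayed the nearest with a prior count of 0.5, and 1 of them did when replicate 1, 2 or 3 was left out of every group. As they were chosen for their likeness, their levels are given as a description.

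ENSRNOG00000015719 had 21.6, 17.0 and 23.6 CPM in 1 h dHC pools, against 12.8, 10.5 and 10.2 CPM in naive dHC pools. In PL it had 101, 70.7 and 82.0 CPM in 1 h pools, against 25.8, 29.7 and 22.6 CPM in naive pools. Neither pair of groups overlapped, as for 9.37% of all genes in dHC and 9.74% in PL in this direction. Its log2 fold change was 0.89 (SE 0.14) in dHC and 1.70 (SE 0.12) in PL, where those of Dusp1 were 0.75 (SE 0.13) and 1.31 (SE 0.08). At 6 d its means were 8.91 CPM in dHC and 21.7 CPM in PL, against 11.2 and 26.1 CPM in naive pools.

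ENSRNOG00000004100 had 6.18, 5.56 and 5.71 CPM in 1 h dHC pools, against 3.01, 4.54 and 4.07 CPM in naive ones, on 27 to 55 reads per library. In PL it had 19.0, 15.8 and 14.7 CPM in 1 h pools, against 10.5, 11.0 and 11.9 CPM in naive pools. Its log2 fold change was 0.59 (SE 0.21) in dHC and 0.58 (SE 0.14) in PL. The pools did not overlap in either region, as for 9.37% of all genes in dHC and 9.74% in PL in this direction. The edgeR adjusted p was 0.294 in dHC and 0.0471 in PL. A difference between the regions in this change is not shown by that. Of 16 alternatives, 0 passed in dHC, where DESeq2 gave no adjusted p. In PL 8 of 16 passed, and the adjusted p ran from 0.00259 to 0.237. At 6 d its means were 3.70 CPM in dHC and 9.58 CPM in PL, against 3.87 and 11.1 CPM in naive pools.

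**Figure D5:**
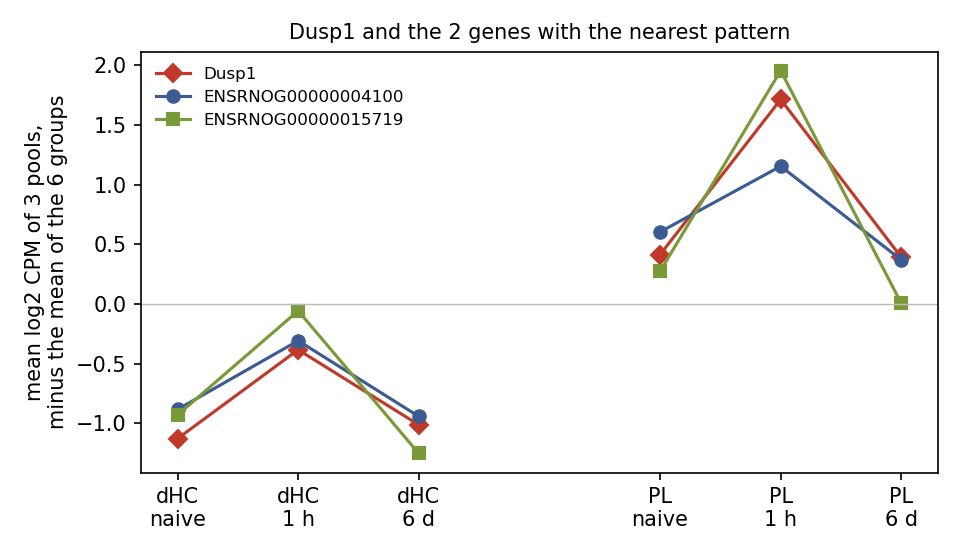
Mean log2 CPM of the 3 pools of each group after subtracting the mean of the 6 groups (vertical axis), for Dusp1 and the 2 genes with the nearest pattern, by region and condition. All 3 genes have their highest point at 1 h in each region and lie higher in PL than in dHC at the same time; Dusp1 is at −0.38 in 1 h dHC and 1.71 in 1 h PL.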

How the data were processed

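The deposited values were whole-number read counts per Ensembl gene, 1 table per library, not normalized by the authors. Picard 1.126, DESeq2 and bedtools 2.17.0 are named in the submitters' processing notes, along with the assembly Rnor_6.0. The sources used here do not give the aligner, the counter with its strand setting, or the release of the gene annotation. Each table ends with 5 rows of reads not assigned to a gene, and these entered neither library sizes nor tests.

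The quasi-likelihood test of edgeR 4.0.16, run in R 4.3.3, was applied to the counts (glmQLFit, glmQLFTest, two-sided), after filterByExpr by group and with TMM factors. P-values were adjusted by Benjamini-Hochberg over all genes tested in each comparison. Comparisons within a region used its 9 libraries and those across regions all 18. Standard errors came from the F statistic. CPM values were scaled by TMM factors over the 18 libraries. Alternatives were DESeq2 1.42.0, limma 3.58.1 (voom), RLE size factors, no filter on low counts, other sets of libraries, a replicate block and leaving out each pool. The fits were tested on simulated data.

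The tables pair no ID with a name, and the reference table of assembly GRCr8 matched 0 of the 32662 IDs. The 9 pathway lists and 12 marker lists that had been written could therefore not be applied. The genes named beside Dusp1 were the 2 IDs with the smallest root-mean-square difference from it in gene-centred mean log2 CPM over the 6 groups (prior count 2, at least 1 CPM on average). Dusp1 and the lists were chosen with earlier results of these data known.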

Additional observations from a re-analysis of the deposited data

How the results depend on the processing

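Over 16 alternatives for each comparison within a region and 24 for each across regions, 6 of the 9 Dusp1 results kept both their direction and their side of the threshold. With 1 pool left out, the 6 d change in PL ran from −0.038 to 0.0086 and turned positive without naive pool 3. The 1 h change in dHC ran from 0.67 to 0.84 and lost its call in 3 of 9 fits. The 6 d minus 1 h change in dHC ran from −0.70 to −0.53 and lost its call in 4 of 9. Fewer pools were in these fits, and the cause was not tested. The 6 d change of ENSRNOG00000004100 in dHC ran from −0.21 to 0.069 with 1 pool left out.

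Whether the replicate numbers pair the pools is not given, and correlations over 3 pools a group cannot decide it. Correlations of same-numbered deviations ran from −0.13 to 0.20, and all 3 were over 0.1 in 0 of 15 pairs of groups. Every sample correlated best with its own number in 1 of the 15. With a replicate block the 1 h log2 fold change of Dusp1 was 0.75 in dHC and 1.31 in PL, and no Dusp1 call changed.

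Counts of called genes moved more. For 1 h against naive, 206 in PL ran from 87 (without 1 h pool 3) to 574 (without 6 d pool 1), with 312 under the block. In dHC, 32 ran from 14 (without 1 h pool 1) to 275 (no filter), with 58 by DESeq2 and 150 under the block. For 6 d against 1 h, 317 in PL ran from 149 (without 1 h pool 2) to 675 (no filter), and 158 in dHC from 18 (without 1 h pool 3) to 623 (no filter), with 549 under the block. The 14 regional differences at 1 h ran from 6 (without dHC 1 h pool 1) to 117 (no filter). Without a filter the 0 genes at 6 d were 31 in dHC, 8 in PL and 12 for the regional difference. That setting changed more than the genes included. For Dusp1 in PL at 1 h the SE rose from 0.0755 to 0.0889, yet the edgeR p fell from 3.16e-14 to 1.05e-49. It also gave the lowest edgeR adjusted p of Dusp1 for both dHC calls (2.50e-05 and 0.000415) and for the regional difference at 1 h (0.0785). A naive dHC library held 80 to 102 Dusp1 reads, and no setting varied the depth.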
